A study of Mus musculus with 4 samples.

Results

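The nuclear-encoded subunits of the oxidative phosphorylation complexes were followed across the cell types of a mouse pancreatic tumour and between tumours treated with the compound AT38 or with its vehicle. Members were genes whose symbol begins with Nduf followed by a, b, c, s or v, with Sdh followed by a to d, with Uqcr, with Cox4 to Cox8 or with Atp5. Of 97 matching names, 12 assembly factors and 6 genes with fewer than 100 unique molecular identifiers (UMIs, one per captured RNA molecule) over the 4 libraries were left out. The remaining 79 of 31053 genes divide into 36 subunits of complex I, 4 of complex II, 8 of complex III, 15 of complex IV (Ndufa4 counted among them) and 16 of complex V. Just above the minimum lay Cox6a2 with 460 UMIs, Cox6b2 with 464, Atp5s with 526 and Cox7a1 with 535, and just below it lay Cox4i2 with 70 and Ndufa4l2 with 52. In complex I the summed UMIs ran from 4071 for Ndufs1 to 36612 for Ndufa2, and in complex II from 6878 for Sdhb to 10741 for Sdha. They ran from 7796 for Uqcrc1 to 64978 for Uqcrh in complex III, up to 102637 for Cox8a in complex IV and up to 87155 for Atp5e in complex V.

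Complexes I to IV of the inner mitochondrial membrane pass electrons from NADH and succinate to oxygen, and complexes I, III and IV pump protons as they do so. Complex V, the ATP synthase, lets the protons flow back and makes ATP. Most subunits are encoded in the nucleus and imported, while a small set of core subunits of complexes I, III, IV and V is encoded by mitochondrial DNA. Mature neutrophils are known for few mitochondria and a strong reliance on glycolysis.

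The cells came from orthotopic tumours of B6KPC3, a mouse pancreatic cancer line, in C57BL/6 mice, and were enriched by sorting for CD45, the surface marker of leukocytes. Tumours were 7 days old when dosing began. One group of mice received AT38, which the labels give as a code name without a structure, at 30 mg/kg per day, given as a pair of daily intraperitoneal injections over 7 days in 1% carboxymethyl cellulose in water. The control group received the same vehicle without the compound. Each group had 2 libraries of the droplet-based 10x 3′ assay, with cells of 4 mice pooled in every library. Individual mice cannot be told apart, and every p-value measures the spread between pools.

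The 4 libraries held 24294216 to 34386076 UMIs, and 2909 to 4731 cells per library were kept, with median UMIs per cell from 3013 to 4146. Cells were named by cluster from marker genes: 4471 neutrophils, 3346 T cells (1688 of them CD8 T cells), 1777 mononuclear phagocytes (monocytes and macrophages), 1631 dendritic cells, 1209 B cells, 532 NK cells, 222 epithelial cells and 108 mast cells or basophils. The labelled sort for leukocytes therefore left a small number of epithelial cells. Summed markers of neutrophils stood at 68294 to 81512 CPM (UMIs per 1000000 UMIs of the class in a library) in the neutrophils and at 131 to 212 in T cells. They stood at 2266 to 2927 in mononuclear phagocytes, at 984 to 1564 in dendritic cells and at 1441 to 3526 in mast cells or basophils. Of the mononuclear phagocytes 510 cells, and of the dendritic cells 400, sat in sub-clusters led by genes of another class. These cells had median UMIs of 12535 and 19325, against 7090 and 12070 for the rest of those classes, and doublets among them cannot be told apart from single cells. Libraries shared 24 barcode sequences.

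Neutrophils and B cells had the lowest summed level of the 79 subunits and epithelial cells the highest. In neutrophils the sum was 10295 and 10616 in the vehicle libraries and 12840 and 13452 in the AT38 libraries. B cells stood at 10948 and 10724 with vehicle and at 12278 and 12157 with AT38. The ranges of these 2 classes overlapped, and both lay below every library of all other classes. NK cells followed with 14918 to 16227, mast cells or basophils with 15070 to 17668, T cells with 16511 to 18182 and mononuclear phagocytes with 17956 to 18812. Each of these 4 ranges overlapped its neighbour. Dendritic cells, at 18938 to 19920, lay above mononuclear phagocytes without overlap, and epithelial cells, at 22342 to 29803, lay above all. The order describes the classes and was not tested, since classes were built from the same cells, and a level in CPM also falls when a class makes much of other RNAs.

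**Figure D1:**
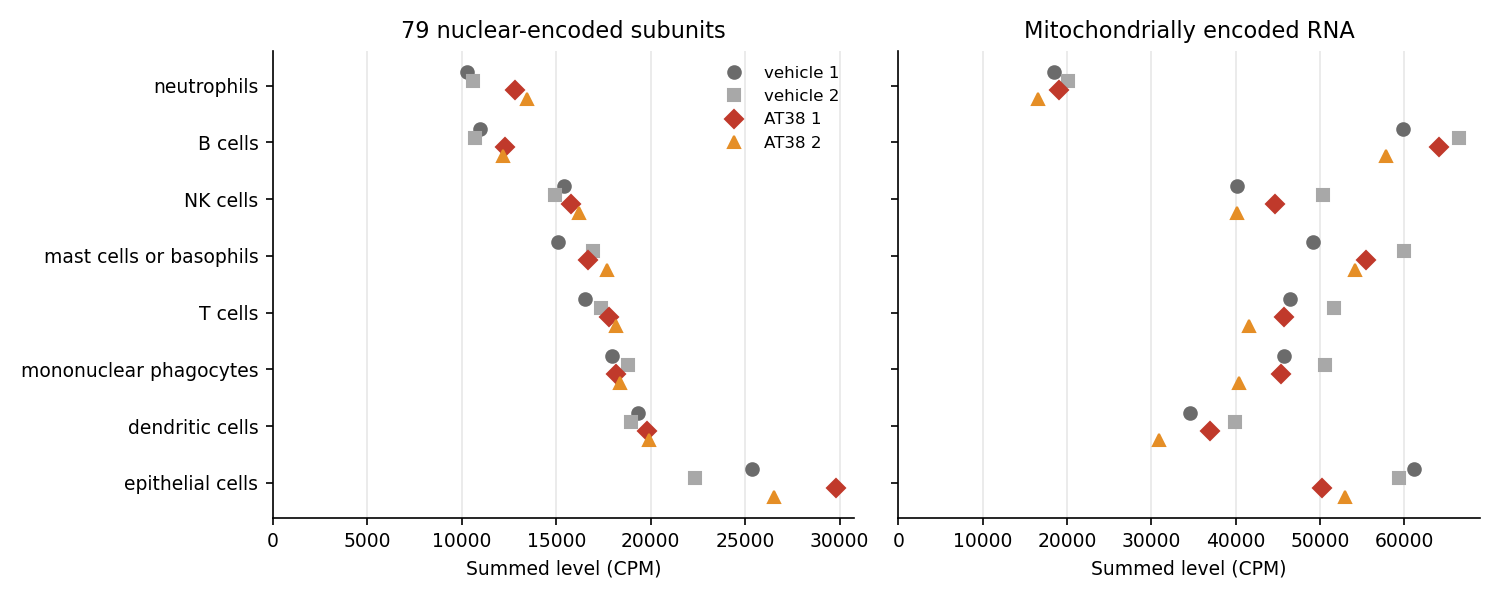
Summed level of the 79 nuclear-encoded subunits (left) and of mitochondrially encoded RNA (right) in each cell class, in CPM, with 1 point per library. On the left the neutrophils (10295 to 13452) and B cells (10724 to 12278) lie lowest, and on the right the neutrophils alone do.

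Mitochondrially encoded RNA separated these low classes. It stood at 16568 to 20050 CPM in neutrophils and at 57787 to 66434 in B cells. For each UMI of mitochondrially encoded RNA, neutrophils held 0.529 to 0.812 UMIs of the nuclear subunits, and B cells 0.161 to 0.210. Cells above 10% mitochondrial UMIs had been removed in both classes.

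Subunit by subunit, the level in neutrophils was uneven. Each subunit was set against the median of 5 other immune classes (B, T and NK cells, mononuclear phagocytes and dendritic cells), using the mean of the 4 libraries in each class. The median ratio over all 79 was 0.599, and over the 12843 genes with at least 100 UMIs and a level above 0 in the 5 classes it was 0.590, so the subunits as a group stood where a typical gene did. By complex it was 0.734 for complex I, 0.581 for complex II, 0.607 for complex III, 0.644 for complex IV and 0.512 for complex V. In 18 subunits every neutrophil library lay below every library of the 5 classes, and in 0 did every one lie above, against 20% and 7.19% of 13092 genes with at least 100 UMIs. The count below is near that of all genes, and what follows describes single members. The 18 comprised 3 of 36 in complex I (Ndufa10, Ndufs3, Ndufb11), Sdha in complex II, 4 of 8 in complex III (Uqcrh, Uqcrfs1, Uqcrc1, Uqcrc2), 4 of 15 in complex IV (Cox7a2l, Ndufa4, Cox7c, Cox4i1) and 6 of 16 in complex V. The 6 of complex V included Atp5a1 and Atp5b, which form the catalytic head, Atp5c1 and Atp5d of the central stalk, and Atp5g2 and Atp5g3, which encode the ring subunit c that turns in the membrane. Over all 8 classes, 63 of the 79 subunits were highest in epithelial cells, 40 were lowest in neutrophils and 37 lowest in B cells.

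**Figure D2:**
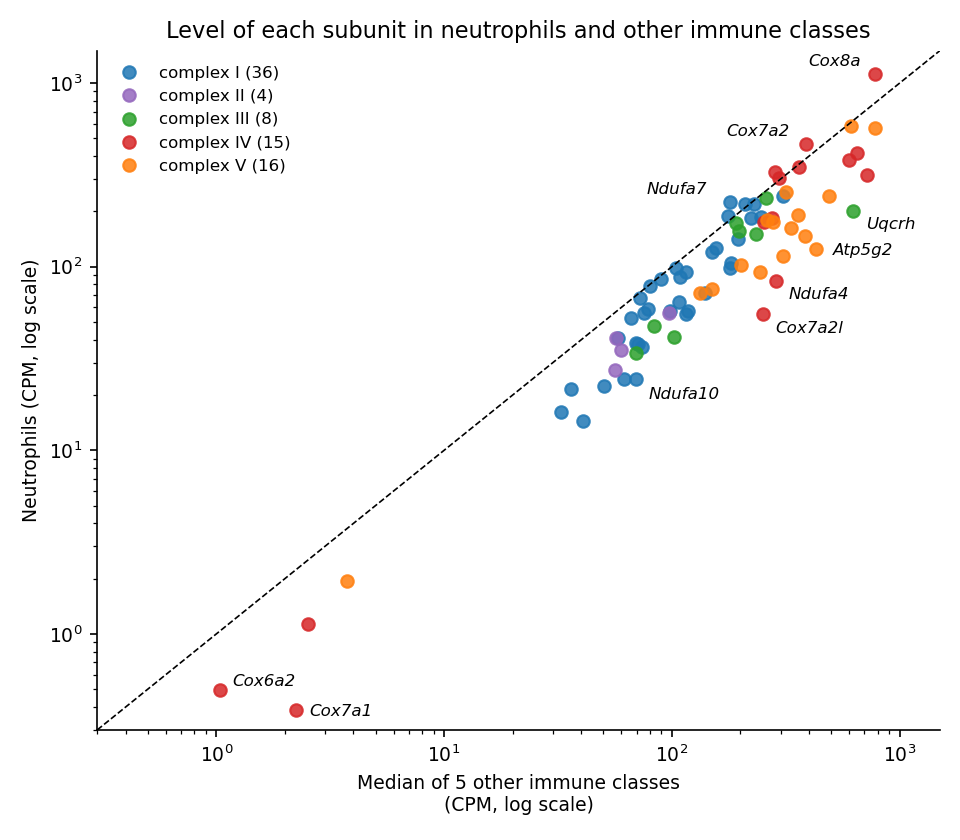
Level of each of the 79 subunits in neutrophils (vertical axis) against the median of 5 other immune classes (horizontal axis), both in CPM on log scales, as means of 4 libraries, coloured by complex; the dashed line marks equal levels. Ndufa4, Cox7a2l, Uqcrh and Atp5g2 lie far below the line and Cox8a and Cox7a2 above it.

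Ndufa4, a late-joining subunit of complex IV, was measured at 94.8 and 84.9 CPM in the vehicle neutrophils and at 78.1 and 78.2 in the AT38 neutrophils. The means of the 5 other immune classes ran from 255 to 352. Cox7a2l, a factor that joins complexes III and IV into supercomplexes, averaged 54.9 in neutrophils and 218 to 280 in the 5 classes. Both genes were thus low in every neutrophil library, and the lowest library of the other classes lay far above the highest neutrophil library. Uqcrh, the hinge protein of complex III that touches cytochrome c, was at 208, 198, 204 and 197 in the neutrophil libraries (vehicle 1, vehicle 2, AT38 1 and AT38 2) and averaged 571 to 844 in the 5 classes. T cells held the most Uqcrh of all 8 classes, and its epithelial mean was 431, so it did not follow the order of the summed level. Atp5g2 was at 110 and 104 with vehicle and at 137 and 151 with AT38 in neutrophils, against means of 381 to 480.

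Other subunits of the same complexes did not share the low level. Cox8a, the widely expressed isoform of a small subunit of complex IV, was at 1003 and 1049 in the vehicle neutrophils and at 1159 and 1278 in the AT38 neutrophils, while its means in the 5 classes ran from 528 to 1042. Cox7a2 averaged 466 in neutrophils against 205 to 405. Cox6a1 averaged 329 against 206 to 333, and Ndufa7 of complex I averaged 225 against 143 to 231. For Cox8a and Cox7a2 the vehicle libraries of the neutrophils lay within the range of the libraries of the 5 classes, and the AT38 libraries lay above that range. Atp5l, a membrane subunit of complex V, had a ratio of 0.953, the highest of its complex. Complex V accordingly took 26.3% of the subunit UMIs in neutrophils and 32.0% in B cells, complex IV 35.5% and 29.7%, and complex I 28.1% and 24.4%.

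Within complex I the largest fold between classes was that of Ndufb2, an accessory subunit, with 215 in epithelial cells and 38.4 in neutrophils. In complex II it was that of Sdhc, a membrane anchor of succinate dehydrogenase, with 95.6 in epithelial cells and 27.4 in neutrophils. In complex III it was that of Uqcrh, and in complex V that of Atp5g2, which averaged 865 in epithelial cells. In complex IV it was that of Cox6b2, which has few counts, with 18.2 in mast cells or basophils and 0.272 in epithelial cells (Cox6a2, at 0 in mast cells or basophils, gives no fold). The other genes of ring subunit c ran in the same direction: Atp5g1 averaged 75.2 in neutrophils and 353 in epithelial cells, and Atp5g3 averaged 114 and 435.

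Promoter sequences were available for 65 of the 79 members (RefSeq, GRCm38.p6; 250 bases before to 50 after the start). They were searched on both strands for the letters of 3 factors known from genes of the respiratory chain: GCGCATGCG for NRF1, CCGGAAG for ETS factors such as GABP, and AAGATGGCG for YY1. None of the 3 contains another, and the NRF1 letters overlap their own reverse complement CGCATGCGC, so capitals can cover both. The NRF1 letters were present in 8 members (12.3%, against 1.95% of 27025 genes with a promoter of this length), the ETS letters in 16 (24.6% against 9.93%) and the YY1 letters in 7 (10.8% against 1.64%). At least 1 of the 3 stood in 26 members (40% against 12.7%). The 250 bases upstream of 4 members are shown because their levels behaved differently: Uqcrh (chr4:116075071-116075320, minus strand) and Atp5g2 (chr15:102671048-102671297, minus strand) were low in neutrophils, Cox6a1 (chr5:115348959-115349208, minus strand) was not, and Ndufa11 (chr17:56717512-56717761, plus strand) rose with AT38 in neutrophils as described below. Capitals mark the NRF1 letters or the ETS letters, the latter as CTTCCGG where they lie on the opposite strand.
Uqcrh: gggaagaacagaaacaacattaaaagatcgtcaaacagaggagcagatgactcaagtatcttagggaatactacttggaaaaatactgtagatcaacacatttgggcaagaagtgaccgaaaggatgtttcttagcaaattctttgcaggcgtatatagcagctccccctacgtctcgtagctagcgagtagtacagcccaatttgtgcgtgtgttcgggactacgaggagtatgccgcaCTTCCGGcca
Atp5g2: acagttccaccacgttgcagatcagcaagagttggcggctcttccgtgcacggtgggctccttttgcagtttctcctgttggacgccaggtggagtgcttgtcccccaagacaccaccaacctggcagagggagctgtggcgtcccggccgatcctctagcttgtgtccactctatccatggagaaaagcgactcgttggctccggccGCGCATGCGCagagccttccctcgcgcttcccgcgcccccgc
Cox6a1: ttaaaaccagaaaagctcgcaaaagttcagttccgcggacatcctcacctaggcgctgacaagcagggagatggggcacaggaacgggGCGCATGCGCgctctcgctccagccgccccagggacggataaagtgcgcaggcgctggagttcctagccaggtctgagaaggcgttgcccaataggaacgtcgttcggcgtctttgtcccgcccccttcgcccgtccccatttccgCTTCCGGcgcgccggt
Ndufa11: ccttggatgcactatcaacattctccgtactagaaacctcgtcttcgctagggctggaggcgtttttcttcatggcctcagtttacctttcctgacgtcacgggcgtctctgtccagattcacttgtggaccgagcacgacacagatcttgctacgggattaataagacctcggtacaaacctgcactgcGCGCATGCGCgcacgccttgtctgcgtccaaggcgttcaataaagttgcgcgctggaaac
The NRF1 letters occurred in Atp5g2, which was low in neutrophils, and also in Cox6a1, which was not, and in Ndufa11. A match of letters does not show binding.

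The isoforms with few counts differed in the cells that held them. Cox6a2 (ENSMUSG00000030785, chr7:128205435-128206387, minus strand), the isoform of subunit 6A known from heart and skeletal muscle, was found mainly in a sub-cluster of 55 plasmacytoid dendritic cell-like cells, led by Siglech and Ccr9 after clustering without the members. These 55 cells held 330 of the 404 Cox6a2 UMIs of all kept cells (81.7%), and 24 of them carried at least 1 UMI (43.6%, exact Clopper-Pearson 95% interval 30.3 to 57.7%, counting error only). In the other dendritic cells 5 of 1576 cells did (0.317%), and in B cells 1 of 1209 (0.0827%), with median depths of 13750 and 3028 UMIs per cell against 9082 in the 55 cells. NK cells, at a median depth of 4113, came next with 15 of 532 cells (2.82%). By library, the plasmacytoid-like cells held 0 Cox6a2 UMIs in the 4 cells of vehicle 1, and 769, 451 and 902 CPM in vehicle 2, AT38 1 and AT38 2. The widely expressed isoform Cox6a1 gave 161 UMIs in the same 55 cells. Cells of 1 library are not replicates, and with 4 to 24 such cells per library AT38 and vehicle were not compared in them.

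The other members with few counts were found in several classes. Cox7a1, the muscle form of subunit 7A, gave 144 of its 478 UMIs in epithelial cells (30.1%) and 101 in macrophages (21.1%). Cox6b2, known from testis, gave 103 of 410 UMIs in type 2 conventional dendritic cells (25.1%) and 75 in macrophages. Atp5s, a coupling factor of the ATP synthase, gave 70 of 449 UMIs in epithelial cells (15.6%). In neutrophils these 3 genes and Cox6a2 did not pass the filter on low counts.

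With AT38, 11 subunits rose in neutrophils and 0 fell among the 75 tested, with 64 past the filter but not past the test (edgeR's quasi-likelihood test, Benjamini-Hochberg adjusted p under 0.05 over 8418 genes). Over all genes tested in neutrophils, 1.52% rose and 3.49% fell. The median log2 fold change was 0.26 for the tested subunits and 0.01 for all genes, and 69 of 75 subunits lay above 0. Without adjustment, 42 of 75 had p under 0.05. In 67 subunits both AT38 libraries lay above both vehicle libraries in CPM, as they did in 36.5% of all genes tested. By complex, the tested subunits that rose were 6 of 36 in complex I (median log2 fold change 0.31), 0 of 4 in complex II (-0.11), 1 of 8 in complex III (0.29), 3 of 12 in complex IV (0.21) and 1 of 15 in complex V (0.19). In complex II 0 of the 4 had an unadjusted p under 0.05, and DESeq2 called 0 there too.

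The scaling between libraries bears on this count. The TMM factors ran from 0.958 in vehicle 2 to 1.044 in AT38 2, and without them the median of all genes tested moved to 0.13 on the log2 scale. Without scaling factors 34 subunits were called higher, and the split of all calls was 349 higher to 165 lower in place of 128 to 294. All log2 fold changes below are on the TMM scale, and CPM values are on library totals.

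**Figure D3:**
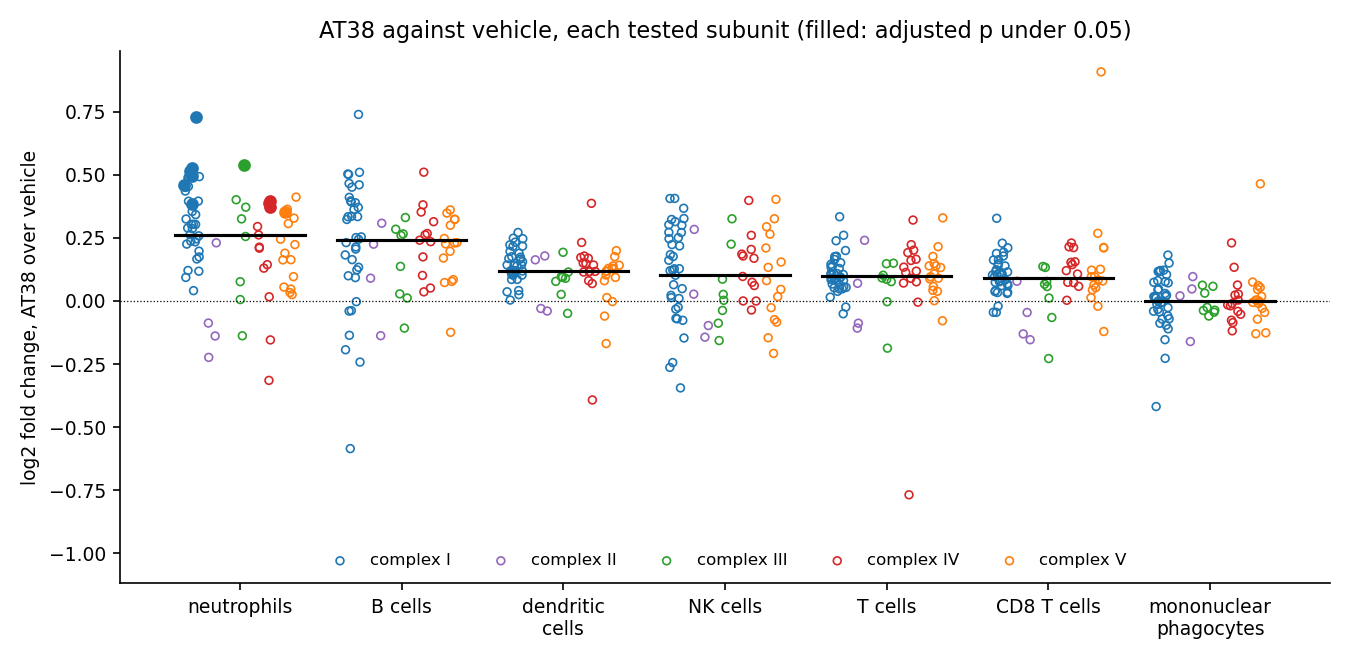
log2 fold change of AT38 over vehicle for each tested subunit in 7 cell classes (1 point per subunit, coloured by complex; filled points have an adjusted p under 0.05 in edgeR's quasi-likelihood test; black bars mark medians). Filled points occur in neutrophils, 11 in number, and the median is 0.26 there and 0.00 in mononuclear phagocytes.

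Ndufs8 (ENSMUSG00000059734, chr19:3908863-3912774, minus strand), a core subunit of complex I that holds a pair of iron-sulfur clusters, rose the most. It was at 27.1 and 31.2 CPM in the vehicle libraries and at 53.4 and 52.3 in the AT38 libraries, resting on 76 to 130 UMIs per library. Both AT38 libraries were above both vehicle libraries, with a log2 fold change of 0.73 ± 0.16 (SE, edgeR adjusted p = 0.00862, n = 2 libraries per group). Uqcrb (ENSMUSG00000021520, chr13:66900617-66905378, minus strand), the subunit of complex III that lies against the ubiquinone-binding region, was at 115 and 126 with vehicle and at 177 and 204 with AT38. Its groups did not overlap either, and its log2 fold change was 0.54 ± 0.11 (edgeR adjusted p = 0.00428).

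The other 5 subunits of complex I that rose were accessory subunits. Ndufs5 was at 73.4 and 80.5 with vehicle and 111 and 130 with AT38 (log2 fold change 0.52 ± 0.12), and Ndufab1, the mitochondrial acyl carrier protein, at 47.0 and 43.5 against 67.4 and 72.8 (0.52 ± 0.14). Ndufa11, whose promoter is shown above, was at 50.6 and 50.5 with vehicle and at 76.8 and 77.7 with AT38 (0.49 ± 0.14). Ndufc1 was at 72.0 and 77.1 against 103 and 120 (0.46 ± 0.12), and Ndufb3 at 99.4 and 110 against 152 and 146 (0.38 ± 0.11). In none of the 5 did the groups overlap.

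In complex IV the risers were small subunits that surround the catalytic core. Cox7c (chr13:86044816-86046904, minus strand) was at 267 and 253 with vehicle and at 368 and 374 with AT38, a log2 fold change of 0.40 ± 0.09 (edgeR adjusted p = 0.0107). Cox6c was at 308 and 326 against 443 and 448 (0.37 ± 0.09), and Cox7b at 141 and 150 against 199 and 214 (0.39 ± 0.10). Atp5j2, a membrane subunit of complex V, was at 161 and 160 against 210 and 235 (0.35 ± 0.10). The AT38 libraries of these 4 genes all lay above the vehicle libraries, and edgeR adjusted p-values over the 11 genes ran from 0.00428 to 0.048.

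**Figure D4:**
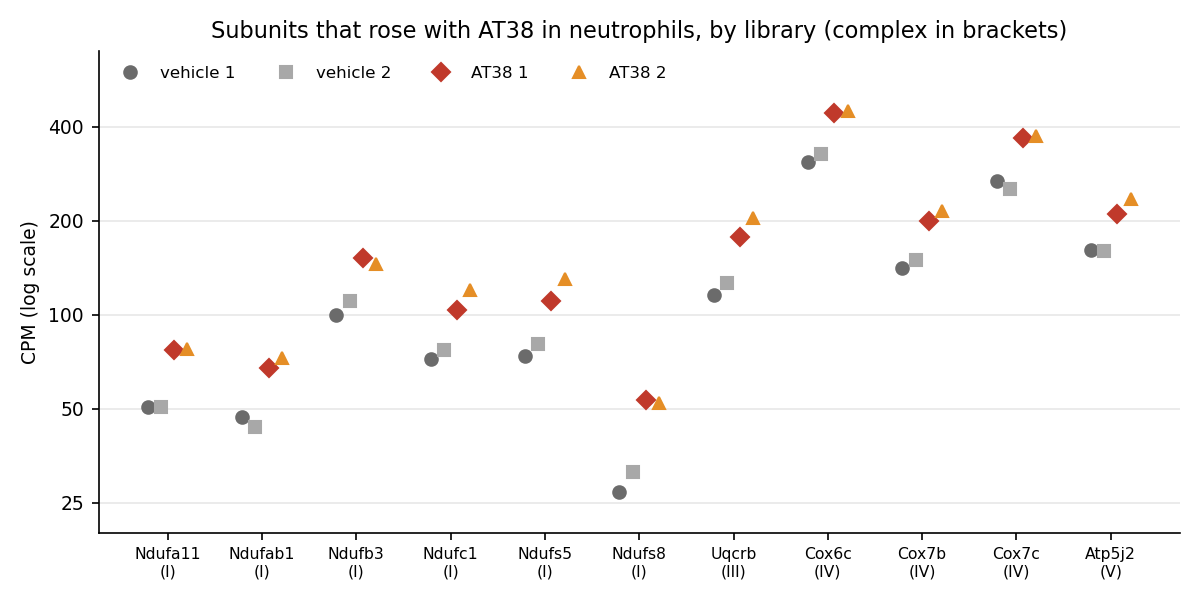
CPM (log scale) of the 11 subunits that rose with AT38 in neutrophils, with 1 point per library and the complex in brackets. In each gene both AT38 libraries lie above both vehicle libraries, for example 53.4 and 52.3 against 27.1 and 31.2 for Ndufs8.

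Most of the nuclear-encoded catalytic and core subunits were not called. Ndufs1, which carries electrons from the flavin in complex I, had a log2 fold change of 0.12, Ndufv1 at the NADH site 0.30 and Ndufs7 0.23. Sdha and Sdhb, the catalytic subunits of complex II, had -0.22 and 0.23. In complex III, Uqcrc1 had 0.40 and the Rieske protein Uqcrfs1 0.01. Atp5a1, Atp5b and Atp5c1 of complex V had 0.03, 0.05 and 0.19. Cox4i1 and Cox5a, nuclear subunits outside the catalytic core of complex IV, had 0.02 and 0.21 and were not called either. The summed level of complex II was 161 and 154 with vehicle against 169 and 153 with AT38, the single complex whose groups overlapped. Complex I was at 2804 and 2909 with vehicle and at 3705 and 3863 with AT38, a ratio of means of 1.32 on library totals, against 1.22 to 1.24 for complexes III to V. These sums carry no p-value, since an exact permutation test of 2 against 2 libraries cannot go below 0.333.

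Ndufa4, low in neutrophils as described above, was the 1 tested member with both AT38 libraries below both vehicle libraries. Over all genes tested this order was seen in 14.3%. Its log2 fold change was -0.31, which did not pass the adjusted test. Uqcrh, at 197 to 208 in all 4 libraries, overlapped between the groups.

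Leaving out 1 library leaves 1 in its group, so those fits are given by effect size. The median log2 fold change of the subunits stayed between 0.22 and 0.29, and that of all genes between -0.004 and 0.013. The subunit calls were lost without vehicle 1 or without vehicle 2 and became fewer without AT38 2. In each of these fits fewer genes were called higher over all genes as well. DESeq2 called 3 of the subunits (Uqcrb, Cox7c and Cox6c). It called 0.267% of all genes higher, against 1.52% with edgeR.

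The subunit level was not even within the neutrophils. Of the 10 leading genes of each first neutrophil cluster, edgeR called 0 to 7 lower and 0 or 1 higher with AT38. Neutrophils were therefore clustered again without the members and the mitochondrially encoded genes. All genes with an unadjusted p under 0.05 between treatments were left out as well, which made 1520 genes in all. This gave 9 groups, named R0 to R8. Such groups cannot separate cell states that are marked by the genes left out. Within a group, a change of state and a change of level therefore cannot be told apart. The lowest summed level was 7014 CPM in R7 (719 cells) and the highest 18031 in R6 (849 cells, led by Cxcl14 and Mt1), of which 88.9% had been in a first cluster led by Siglecf, a lectin known from eosinophils and from a tumour-associated state of neutrophils. R6 made up 15% and 16.1% of the neutrophils with vehicle and 23.7% and 24.3% with AT38. R7 made up 18.2% and 17.1% with vehicle and 13.9% and 13.9% with AT38, and R1, led by Areg, 12.3% and 10.1% against 6.12% and 7.45%. The share of R6 was thus higher, and those of R7 and R1 lower, in both AT38 libraries than in both vehicle libraries. R3, with a summed level of 8551 CPM, was also higher, at 13.9% and 11.8% against 14.3% and 15.9%. R0 (12.5% and 14.2% against 12.3% and 11.5%) and R8 (1.27% and 1.74% against 0.633% and 0.601%) were also lower.

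Within 8 of the 9 groups the summed subunit level was also higher in both AT38 libraries. In R6 it was 17439 and 17021 with vehicle and 18266 and 19279 with AT38, and in R2 (846 cells) it was 11199 and 11612 against 13346 and 13912. In R7 it was 6842 and 6969 against 7032 and 7378, so the step was small there. These sums are on library totals. On that scale the median log2 fold change of all genes tested in neutrophils was 0.13, and 36.5% of those genes had both AT38 libraries above. The shift of all genes within each group was not computed, so a rise particular to the subunits cannot be read from these sums. R8, 53 cells led by the granule genes Ngp and Camp, had 11907 and 7686 with vehicle and 6380 and 12519 with AT38, and its groups overlapped. R4 (156 cells) was led by T cell genes such as Cd3g and Trbc2.

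**Figure D5:**
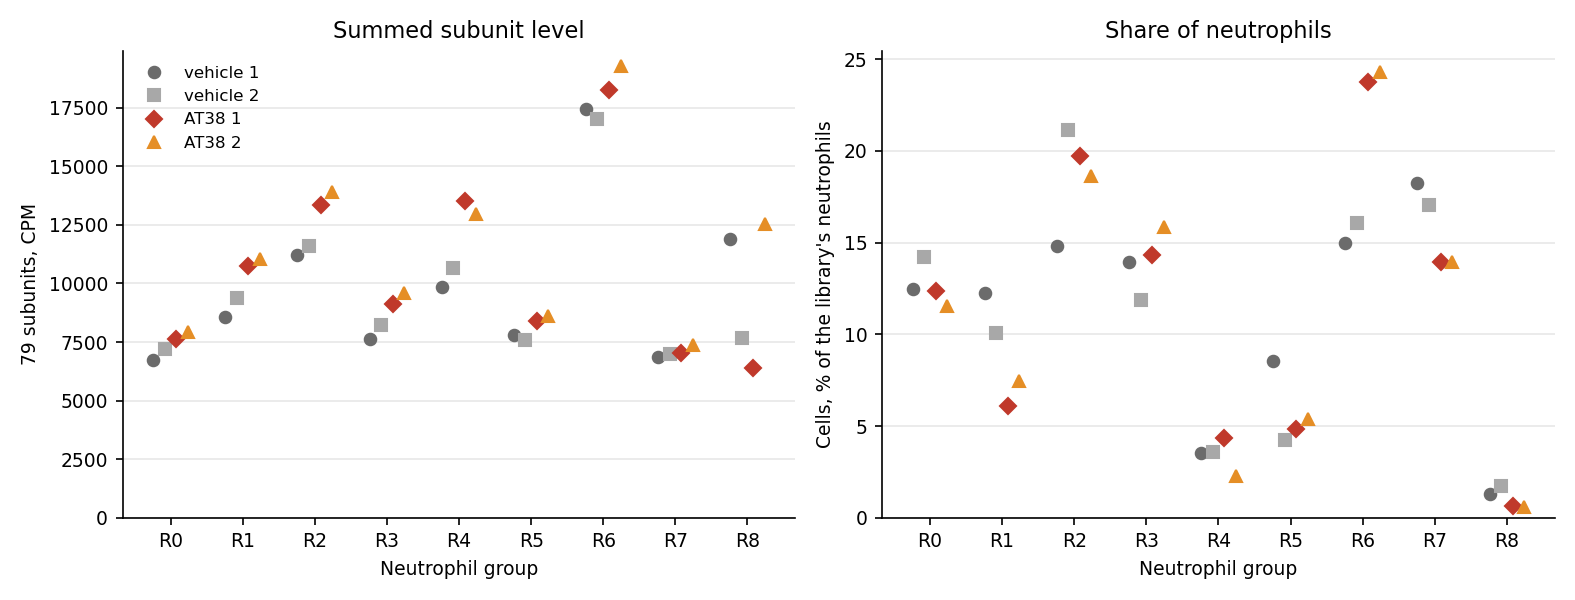
Summed level of the 79 subunits in CPM (left) and share of each library's neutrophils in percent (right) for the 9 neutrophil groups R0 to R8, with 1 point per library. R6 has the highest level and a larger share in the AT38 libraries (23.7% and 24.3%) than in the vehicle libraries (15% and 16.1%).

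The Siglecf-led first cluster held 27.4% and 30.9% of the neutrophils with vehicle and 44.7% and 42.5% with AT38. The one led by Lrg1 and Csf3r held 31.5% and 36.1% against 21.9% and 19.6%. Their mean summed levels were 16865 and 7888 CPM. The cluster led by Ngp and Camp held 2.75% and 2.93% against 2.74% and 2.16%. Shares of those led by Hspa1b and by Acod1 and Cxcl3 overlapped between the treatments. Subunit calls were lost in single neutrophil clusters and with clusters at equal weight. Tested in each of the 4 largest first clusters alone, edgeR called 0 subunits higher, with 1, 17, 2 and 4 at an unadjusted p under 0.05. Of all genes, 0.457%, 0.084%, 0.0777% and 0.842% were called higher there, against 1.52% in all neutrophils. In the Siglecf-led cluster alone, 63 of 75 subunits lay above 0 with a median log2 fold change of 0.14. There Ndufs8 was at 49.6 and 52.9 with vehicle and at 90.2 and 79.6 with AT38, a log2 fold change of 0.70 that did not pass (edgeR adjusted p = 0.134). In the other 3 clusters the medians were 0.00, 0.03 and 0.20. With the 4 clusters of most UMIs given equal weight in each library, 0 subunits were called (5 with unadjusted p under 0.05). There 50 of 75 lay above 0, the median was 0.09, and 0.195% of all genes were called higher. These 4 included the cluster led by Ngp and Camp and not the one led by Hspa1b. These alternatives were chosen after seeing the data. They test fewer cells or UMIs, so the parts of weighting and depth cannot be told apart.

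Markers of other cells moved in the same comparison. Summed markers of acinar cells, the enzyme-secreting cells of the pancreas, were at 53.1 and 49.5 CPM in the vehicle neutrophils and at 137 and 146 in the AT38 neutrophils, with 4 of 8 markers above in both AT38 libraries. The neutrophils' own marker list was at 76098 and 81512 with vehicle and at 68384 and 68294 with AT38, with 1 of 10 markers above and 5 below. The proliferation list was at 254 and 73.9 against 36.6 and 45.1, with 0 of 10 above and 8 below. Markers of type 2 conventional dendritic cells were at 256 and 272 with vehicle and at 376 and 376 with AT38, with 2 of 8 above in both AT38 libraries and 1 below. Those of plasmacytoid dendritic cells were at 82.3 and 97.4 against 108 and 118, with 2 of 8 above and 3 below, and 4 of the 8 had UMIs in every library. Other lists with sums below in both AT38 libraries were those of mast cells or basophils (2552 and 2499 against 2261 and 2095) and plasma cells (696 and 738 against 642 and 656). Those of epithelial cells (26 and 21.6 against 20.5 and 19.2, with Cldn4 at 0) and fibroblasts (27.4 and 23.7 against 21.8 and 23.2, with Pdgfra at 0) did so too. Single markers were mixed, with 1 above and 1 below of 8 for mast cells or basophils and of 7 for plasma cells. For epithelial cells 1 of 8 was above and 3 below, and for fibroblasts 0 of 7 above and 1 below. Macrophage markers, at 420, 571, 632 and 443, and T cell markers, at 98.0, 69.5, 98.6 and 57.2, overlapped between the groups. In the 80 to 223 neutrophils per library with no UMI of 99 markers of other classes, 45 subunits were tested, 0 were called (1 with unadjusted p under 0.05), 26 lay above 0 and the median was 0.09. Of all genes tested in these cells, 0.419% were called higher. The part of the acinar and dendritic cell markers in the result was not tested.

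Other mitochondrial gene lists were tested in the same neutrophils. Among the 13 mitochondrially encoded subunits, mt-Co1 and mt-Co3 of complex IV fell and 0 rose. mt-Co1 was at 4529 and 4715 with vehicle and at 4226 and 3629 with AT38 (log2 fold change -0.35 ± 0.08, edgeR adjusted p = 0.0119), and mt-Co3 at 2993 and 3129 against 2777 and 2349 (-0.37 ± 0.09, edgeR adjusted p = 0.00999). Both AT38 libraries lay below both vehicle libraries. DESeq2 also called both. Neither passed without scaling factors, where the list's median moved from -0.12 to 0.00 and mt-Atp8 was called higher, and neither passed without vehicle 1, vehicle 2 or AT38 2. The nuclear subunits that surround these proteins in complex IV, Cox6c, Cox7b and Cox7c, rose in neutrophils as a whole. In the cluster led by Acod1 and Cxcl3 alone, mt-Co1 and mt-Co3 passed (-0.60 and -0.58, edgeR adjusted p = 0.000428 and 0.000591). There Cox6c, Cox7b and Cox7c had 0.11, 0.59 and 0.24 and did not pass. The Hspa1b-led cluster had -0.59 and -0.65 for mt-Co1 and mt-Co3, the Siglecf-led one -0.15 and -0.20, and the Lrg1-led one -0.07 and -0.14. Neither passed in those clusters.

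Of 33 assembly factors tested, Ndufaf8, an assembly factor of complex I, rose from 38.5 and 34.1 to 60.4 and 62.5 (0.65 ± 0.15, edgeR adjusted p = 0.0124), and 0 fell. DESeq2 did not call it, and edgeR did not without vehicle 1 or vehicle 2. Without scaling factors 3 assembly factors were called higher, Ndufaf8, Coa3 and Cox14. Of 17 genes of the TCA cycle, Mdh2, which regenerates oxaloacetate and makes NADH, rose from 164 and 187 to 265 and 249 (0.43 ± 0.10, edgeR adjusted p = 0.0126), and 0 fell. DESeq2 also called Mdh2 (adjusted p = 0.0466), and edgeR did not without vehicle 1, vehicle 2 or AT38 1. Of 10 hypoxia-linked isoforms and regulators, 0 rose, and the mitophagy receptors Bnip3 (168 and 138 against 116 and 126, log2 fold change -0.45) and Bnip3l (264 and 235 against 182 and 229, -0.40) fell, with edgeR adjusted p of 0.0265 and 0.0384. Neither was called by DESeq2, without vehicle 1, vehicle 2 or AT38 1, or without scaling factors, where the list's median turned from -0.07 to 0.05. Cytochrome c and c1 (2 tested), 10 regulators of mitochondrial biogenesis and 9 carriers and uncoupling proteins had 0 calls by edgeR (0, 1 and 3 with unadjusted p under 0.05) and 0 by DESeq2.

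In the other classes edgeR called 0 subunits in either direction, and DESeq2 also called 0. In B cells 22 of 75 tested subunits had an unadjusted p under 0.05 (3 with DESeq2), the median log2 fold change was 0.24, and both AT38 libraries lay above both vehicle libraries in 42, against 16.9% of all genes tested there. The call rate over all genes in B cells was 0.379%. Ndufs5 was closest, at 41.8 and 42.9 with vehicle and 75.2 and 58.8 with AT38 (log2 fold change 0.74, edgeR adjusted p = 0.123), followed by Cox5b (0.51, edgeR adjusted p = 0.158). The groups did not overlap for Ndufs5, and without AT38 2 it was called (0.85, edgeR adjusted p = 0.0286), as was Cox5b without AT38 1 (0.67, edgeR adjusted p = 0.0311). The summed level in B cells was 1.13 times higher in the mean of the AT38 libraries, without overlap.

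T cells had 12 of 78 subunits with an unadjusted p under 0.05 (5 with DESeq2), a median of 0.10 and 38 with both AT38 libraries above, against 14.2% of all genes and a call rate of 0.267%. The smallest p was that of Ndufb2 (0.33, edgeR adjusted p = 0.356). CD8 T cells had 8 of 76 (1 with DESeq2), a median of 0.09 and 26 with both above, against 14.7% and a call rate of 0.0738%. NK cells had 4 of 75 (0 with DESeq2), a median of 0.10 and 25 with both above, against 16.1% and a call rate of 0.0757%. Ndufa4, low in neutrophils, had the smallest p in NK cells, at 258 and 346 with vehicle and 392.4 and 400.4 with AT38 (0.40, edgeR adjusted p = 0.524).

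Dendritic cells had 3 of 79 subunits with an unadjusted p under 0.05 (0 with DESeq2), a median of 0.12 and 31 with both AT38 libraries above, against 11.5% of all genes and a call rate of 0.0178%. Cox6a2 was called there only when AT38 1 was left out (0.72, edgeR adjusted p = 0.042), with dendritic cell levels of 0.384 and 21.7 with vehicle and 11.2 and 18.0 with AT38. The number of plasmacytoid-like cells was 4 and 24 with vehicle and 15 and 12 with AT38, and its part in these levels was not tested. Mononuclear phagocytes had 1 of 78 (0 with DESeq2), a median of 0.00 and 11 with both above, against 20% of all genes and a call rate of 1.05%. That 1 was Ndufs1, at 37.2 and 39.5 with vehicle and 30.0 and 27.0 with AT38 (-0.42, edgeR adjusted p = 0.317). Among the core subunits, no other had an adjusted p below 0.337 outside neutrophils. The oxygen sensor Egln3 of the hypoxia-linked list fell in mononuclear phagocytes, from 55.9 and 48.9 to 33.8 and 29.9 (-0.70 ± 0.14, edgeR adjusted p = 0.0497). It was not called by DESeq2 or without vehicle 1, vehicle 2 or AT38 2. Summed macrophage markers in this class were at 7308 and 8700 with vehicle and at 11249 and 12414 with AT38, with 8 of 10 markers above in both AT38 libraries and 1 below. Summed monocyte markers were at 4041 and 4166 against 3264 and 3508, but single markers were mixed, with 4 of 8 above and 3 below. The part of these changes in the values of the class was not tested.

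Whether the response of neutrophils differed from that of mononuclear phagocytes, the class with a median of 0.00, was tested as an interaction in 1 fit over both classes, with each library as a block. Of 78 subunits 2 differed, both with the higher response in neutrophils, against 0.484% of the 10747 genes tested with a higher response in neutrophils and 0.94% with a lower one. Ndufs8 differed by 0.80 ± 0.20 on the log2 scale (edgeR adjusted p = 0.0317) and Uqcrb by 0.57 ± 0.14 (edgeR adjusted p = 0.0322). In mononuclear phagocytes Ndufs8 was at 66.8 and 72.6 with vehicle and 67.5 and 66.0 with AT38, and Uqcrb at 255 and 280 against 260 and 263, so the groups overlapped in both genes. The median difference was 0.29 for the subunits and 0.01 for all genes, with 72 of 78 above 0 and 26 at an unadjusted p under 0.05. Neither DESeq2 nor edgeR with RLE factors called any. In the same test of T cells against mononuclear phagocytes, edgeR called 0 of 78, with 2 at an unadjusted p under 0.05 and a median difference of 0.13. Of all genes, 0.121% had a higher and 0.0606% a lower response in T cells.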

How the data were processed

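The values the authors deposited are raw counts of UMIs for each gene in each barcode. Cell Ranger 3.1.0 and mm10 are named in the submitters' processing notes. The annotation release behind the counts is not given in the sources used here. Gene positions came from GENCODE release M21 (GRCm38) by Ensembl ID. Counts are of RNA 3′ ends, so levels are not compared between genes.

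A barcode was kept with 200 or more genes, 500 or more UMIs and no more than 10% of mitochondrial UMIs (scanpy 1.11.5, Python 3.11.15). Doublets were scored with scrublet, and the top scores were removed at 0.8% per 1000 barcodes, 683 of 18001 barcodes (3.79%), because its automatic threshold marked 0.044%. From 2000 variable genes and 30 components with 15 neighbours, Leiden clustering at resolution 1 gave 29 clusters. The deposited matrices were used without cell type names, so a cluster was named from at least 3 detected markers of a fixed list, and 833 of 14254 cells stayed unnamed. T and NK clusters were clustered again into 13 sub-clusters.

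Counts were summed per library and class, for classes with at least 20 cells in every library that were immune cells other than mast cells or basophils. They were tested with edgeR 4.0.16 (quasi-likelihood, robust, TMM, filterByExpr, two-sided; limma 3.58.1, R 4.3.3), with Benjamini-Hochberg adjustment over all genes of the class at 0.05. DESeq2 1.42.0 was an alternative, and both were tested on simulated data. Errors of log2 fold changes are model standard errors. Named were all called members, a set of core subunits (of which 1 is not reported here), isoform sets, the extremes of UMIs and of class folds in each complex, and up to 4 members of each other list by smallest p. The members and lists were chosen with earlier results of these data known. Same-numbered libraries were checked for pairing: their deviations from the group means correlated at -0.04 in neutrophils and between -0.10 and 0.26 over the 7 classes. The highest values were 0.26 in mononuclear phagocytes and 0.23 in dendritic cells. With 2 libraries per group this check cannot decide whether they are paired, and the main tests did not pair them.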

Additional observations from a re-analysis of the deposited data

Results flagged for a closer look

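In 2 subunits the response to AT38 differed between neutrophils and mononuclear phagocytes by a test of the difference itself. Ndufs8 differed by 0.80 on the log2 scale: it was at 27.1 and 31.2 CPM (UMIs per 1000000 UMIs of the class) with vehicle and at 53.4 and 52.3 with AT38 in neutrophils, and at 66.8 and 72.6 against 67.5 and 66.0 in mononuclear phagocytes. Uqcrb differed by 0.57. The adjusted p-values of edgeR's quasi-likelihood interaction test were 0.0317 and 0.0322, and both calls were lost with RLE factors, with DESeq2 and without vehicle 1, vehicle 2 or AT38 2. That of Ndufs8 was lost without AT38 1 as well.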

How the results depend on the processing

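In neutrophils 11 subunits were called higher. The count was 34 without scaling factors and 3 with DESeq2, where 4.15% and 0.267% of all genes were called higher, against 1.52%. With 1 library left out, the subunit calls were lost without vehicle 1 or vehicle 2 and became fewer without AT38 2. Calls over all genes became fewer in each of these fits. The count was 0 in each of the 4 largest neutrophil clusters alone, with the 4 clusters of most UMIs at equal weight, and in neutrophils without UMIs of other classes' markers (edgeR, unadjusted p under 0.05 in 1, 17, 2, 4, 5 and 1). In these settings 0.457%, 0.084%, 0.0777%, 0.842%, 0.195% and 0.419% of all genes were called higher. Under the other alternatives it was 8 to 13. In the cluster led by Lrg1 and Csf3r the log2 fold change turned to -0.45 for Cox7b, -0.20 for Ndufab1, -0.094 for Ndufc1 and -0.63 for Uqcrb. In the cluster led by Hspa1b it turned to -0.15 for Cox7b and -0.72 for Ndufs5, and in the cluster led by Acod1 and Cxcl3 to -0.17 for Ndufb3. Without UMIs of other markers it turned to -0.21 for Cox7c, -0.22 for Ndufb3 and -0.46 for Ndufs5. The single clusters, their equal weighting and the setting without other markers were chosen after seeing the data and test fewer cells or UMIs. The difference between neutrophils and mononuclear phagocytes was called in 13 subunits without scaling factors, in 0 with RLE factors, in 0 with DESeq2 and in 0 to 2 with 1 library left out. In dendritic cells and in B cells 0 to 1 were called with 1 library left out. Averaging per-cell shares gave summed levels of 10927 in neutrophils, 10674 in B cells, 14705 in NK cells, 15550 in T cells, 17772 in mononuclear phagocytes, 18894 in dendritic cells and 14800 in mast cells or basophils. In B cells the sum was 11830 with no doublets removed, 11676 with at least 500 genes per barcode, 12390 at Leiden resolution 0.5 and 12391 or 12392 when clustered without the members. A mitochondrial maximum of 20% gave 19266 in dendritic cells and 14963 in mast cells or basophils. The causes of these shifts were not tested. With the replicate number as a block, 12 subunits were called higher in neutrophils and 0 in every other class tested, and the crossed pairing in NK cells gave 0. The libraries share only a number. Depth limits low members: 4 of the 79 could not be tested in neutrophils.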
